A study of Homo sapiens with 23 samples.

Results

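Gene deserts are long stretches of the genome that hold no gene. They are low in GC and poor in CpG islands, and much of their sequence lies in closed chromatin in most cell types. Some deserts beside developmental regulators carry enhancers that act on a promoter far away. Acetylation of H3K18 and H4K12 marks active promoters and enhancers, and propionyl and butyryl groups can occupy the same lysines. The regions described here are those peaks of the immunoprecipitated libraries whose summit lay outside every protein-coding and lncRNA gene of GENCODE release 44 and more than 100 kb from the start site of each such gene. By this rule 48760 of 2022255 regions (2.41%) were desert regions.

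The regions came from ChIP-seq of SW480, a long-established epithelial cell line grown from a human colorectal cancer. Chromatin was precipitated with antibodies to propionylated (H3K18pr, H4K12pr), butyrylated (H3K18bu, H4K12bu) or acetylated (H3K18ac, H4K12ac) lysines. Propionyl marks were mapped in cells given 10 mM sodium propionate (NaPr), butyryl marks in cells given 1 mM sodium butyrate (NaBu), and acetyl marks in NaPr, NaBu and untreated cells. Treatment lasted 12 to 16 hours. The 10 groups had 2 replicate libraries each, and 1 list from input chromatin, which was not precipitated, was available for each of the 3 conditions. The input labelled untreated is titled as the acetyl input, and whether it was also the control of the NaPr acetyl libraries is not given in the sources used here. The input of the same condition is meant by these labels. All samples were of this 1 line, with no untreated propionyl or butyryl library, so a change of these marks on treatment could not be measured.

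List length differed between libraries, from 8158 regions in H4K12bu replicate 2 to 208823 in untreated H4K12ac replicate 1. Run tags divided the libraries into 3 runs. H3K18pr and H4K12pr shared a run with the NaPr input. Acetyl libraries of NaPr cells shared another with those of untreated cells and their input, and the third run was that of NaBu. Propionyl against acetyl and NaBu against untreated can therefore not be told apart from the run. Replicate 1 of H3K18ac in NaPr stood apart from its partner, with 202787 regions against 95194, and results that rest on it are given with and without it. Promoters of the epithelial keratins KRT8 and KRT18 held a region in all 20 libraries, EPCAM in 19 and HNF4A in 18. Other listed genes of colon epithelium had fewer, with CDH1 and VIL1 in 12, CDX2 in 10 and CDX1 and TFF3 in 3. KRT20, a keratin of differentiated colonocytes, had one in 1 library. Among listed genes of other cell types, the leukocyte gene PTPRC and the hepatocyte gene ALB had none in any library. CD3E and MYOD1 had one in 1 library, PECAM1 in 5 and the glial gene GFAP in 10.

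The deserts were 1845 stretches with 412.184 Mb of sequence, 14.0% of the sequenced genome, and their GC share was 37.7%. The median desert was 103 kb long after 100 kb had been taken off on each side at a start site. The median desert region lay 163 kb from its nearest start site and the farthest 3600 kb. Within 10 kb of the limit there were 6064 desert regions (12.4%), the nearest at 100.001 kb, and 7681 regions outside genes lay in the 10 kb just short of it. Only 1930 (3.96%) lay beyond 500 kb.

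Examples of desert regions are shown by their sequence, each as the 200 bases around the mean summit on the plus strand of hg38. The first 3 are regions that recurred: 2 held by all 20 libraries, and 1 from the desert with the highest density of regions, which was chosen after its values were seen. Capitals mark a match on either strand to TGACTCA, an AP-1 motif, or to CTTTGAT, a TCF/LEF motif. AP-1 is the JUN and FOS family of enhancer-binding factors, and TCF/LEF factors carry the transcriptional output of Wnt signalling. The windows are MED14/USP9X at chrX:40909202-40909401, BAMBI/LYZL1 at chr10:28991581-28991780 and RGS9/AXIN2 at chr17:65287876-65288075, named by the nearest protein-coding gene on either side. The MED14/USP9X window held an AP-1 match and the BAMBI/LYZL1 window a TCF/LEF match.
MED14/USP9X: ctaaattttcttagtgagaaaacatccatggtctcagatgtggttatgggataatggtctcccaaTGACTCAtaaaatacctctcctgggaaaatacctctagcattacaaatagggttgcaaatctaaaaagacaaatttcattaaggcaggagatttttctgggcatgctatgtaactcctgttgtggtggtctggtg
BAMBI/LYZL1: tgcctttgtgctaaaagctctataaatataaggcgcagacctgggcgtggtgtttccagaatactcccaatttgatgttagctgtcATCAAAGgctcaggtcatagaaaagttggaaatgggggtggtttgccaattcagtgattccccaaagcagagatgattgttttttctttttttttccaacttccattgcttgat
RGS9/AXIN2: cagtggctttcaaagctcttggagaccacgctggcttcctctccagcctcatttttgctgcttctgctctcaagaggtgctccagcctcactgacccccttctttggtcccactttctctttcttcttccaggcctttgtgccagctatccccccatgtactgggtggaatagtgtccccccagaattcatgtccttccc

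The other 3 belong to regions that both replicates of a mark held and neither replicate of the compared mark. They are CYRIA/RAD51AP2 at chr2:17300365-17300564 and SUGCT/INHBA at chr7:41580571-41580770, held by H3K18pr and not by H3K18ac in NaPr, and CITED2/NMBR at chr6:141153161-141153360, held by H3K18bu and not by H3K18ac in NaBu. Both H3K18pr windows held an AP-1 match, and that of SUGCT/INHBA also a TCF/LEF match. The third named H3K18pr window, in the LCLAT1/CAPN13 desert at chr2:30680274-30680473, held none of the motifs searched.
CYRIA/RAD51AP2: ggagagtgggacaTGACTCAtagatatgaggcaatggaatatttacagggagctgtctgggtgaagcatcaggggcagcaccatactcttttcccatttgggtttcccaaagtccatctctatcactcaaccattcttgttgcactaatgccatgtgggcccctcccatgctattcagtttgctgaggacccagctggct
SUGCT/INHBA: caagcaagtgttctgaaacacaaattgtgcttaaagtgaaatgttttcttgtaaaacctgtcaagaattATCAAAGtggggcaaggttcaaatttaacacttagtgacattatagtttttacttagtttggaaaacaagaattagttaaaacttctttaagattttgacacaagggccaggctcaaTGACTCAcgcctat
CITED2/NMBR: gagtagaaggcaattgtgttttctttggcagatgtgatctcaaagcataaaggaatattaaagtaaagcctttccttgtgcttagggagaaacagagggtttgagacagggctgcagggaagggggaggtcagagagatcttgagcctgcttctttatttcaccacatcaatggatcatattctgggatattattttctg

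Among the 41 windows read around named regions, 4 held the AP-1 motif, 3 the TCF/LEF motif and 2 the forkhead (FOX) motif TGTTTAC. None held the GATA motif AGATAAG, the KLF/SP motif GGGCGGG or the CTCF core AGGGGGCGC. Some of these windows overlap, since a region can be named under more than 1 rule. Their GC share ranged from 33.5% to 60.5% with a median of 47.5%. Of all 200-base windows in deserts genome-wide, 2.50% held the AP-1 motif on either strand, 4.14% TCF/LEF, 3.29% FOX, 2.74% GATA, 0.312% KLF/SP and 0.0123% CTCF. Outside deserts the shares were 3.07%, 3.26%, 3.05%, 2.85%, 1.14% and 0.0506%. A match says only that these letters occur in the window.

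Desert regions made up a small part of each list. The H3K18pr replicates had shares of 2.44% and 3.84%, while the H4K12pr replicates had 1.77% and 1.51%. The butyryl replicates had 2.16% and 2.80% (H3K18bu) and 1.46% and 1.88% (H4K12bu). H3K18ac had 1.08% and 3.55% in NaPr, 2.71% and 1.96% in NaBu and 1.79% and 3.67% in untreated cells. H4K12ac had 3.62% and 4.17% in NaPr, 4.27% and 1.498% in NaBu and 1.15% and 1.37% in untreated cells. Each of the 20 lists thus fell short of the desert share of the genome, by 3.28-fold to 12.998-fold. Input lists held more, 12.7% in NaPr, 11.8% in NaBu and 6.21% in untreated cells, each with no replicate. Replicates could differ as much as groups did. The lowest share of all, 1.08%, and the highest, 4.27%, belonged to libraries whose partners had 3.55% and 1.498%.

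**Figure D1:**
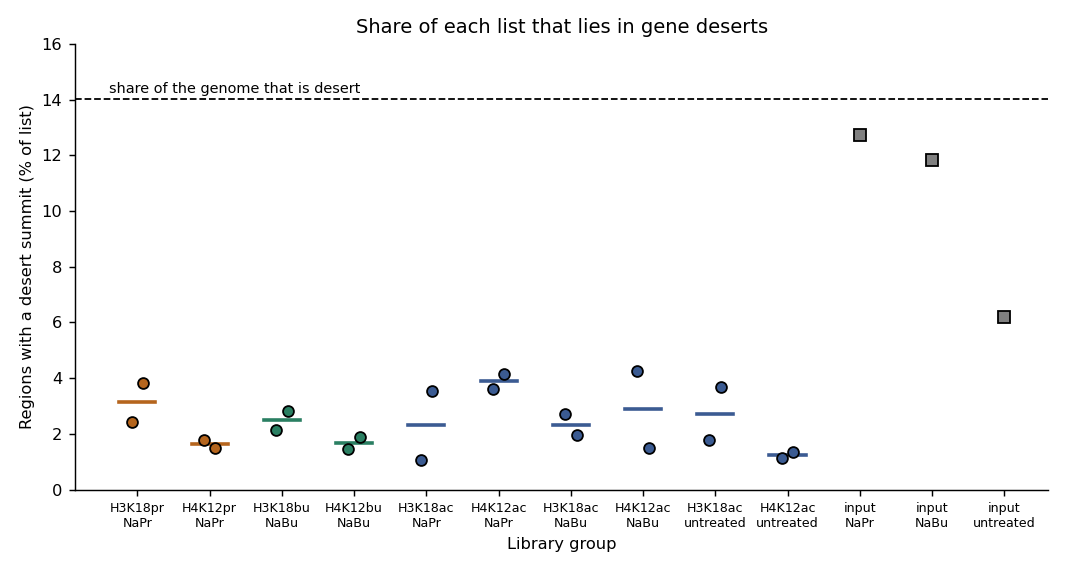
Share of each list that lies in gene deserts (% of regions), by group; circles are libraries, bars the mean of 2, squares the 3 input lists, and the dashed line the desert share of the genome (14.0%). All 20 immunoprecipitated libraries sit between 1.08% and 4.27%, below the 3 inputs at 6.21% to 12.7%.

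The comparison of acyl with acetyl marks asked whether either kind reaches farther into deserts. Over the 4 pairs of the same site and treatment, the mean share was 2.23% for acyl and 2.86% for acetyl libraries, a difference of -0.623 percentage points (two-sided exact permutation test within pairs, p = 0.304, Benjamini-Hochberg adjusted over 6 tests 0.667). The pairs did not go one way. At H3K18 the propionyl share exceeded the acetyl share by 0.824 and the butyryl share by 0.150, while at H4K12 the differences were -2.25 and -1.22. Of these only the H4K12pr difference kept its sign without any 1 of its 4 libraries (-2.52 to -1.98). The H3K18pr difference was -0.413 without H3K18ac NaPr replicate 1, that of H4K12bu was 0.171 without replicate 1 of H4K12ac in NaBu, and that of H3K18bu ranged from -0.225 to 0.524. Only in the H4K12pr pair did the libraries not overlap, with both H4K12ac libraries above both H4K12pr libraries. Without H3K18ac NaPr replicate 1 the mean difference was -0.933 (exact permutation p = 0.0787, adjusted 0.472). Among the 8158 strongest regions of each list, the length of the shortest, the direction turned, with a difference of 0.401 (exact permutation p = 0.134, adjusted 0.201).

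Acetyl libraries were also compared between treated and untreated cells. The mean desert share was 3.10% in NaPr and 1.99% in untreated cells, a difference of 1.11 percentage points (exact permutation p = 0.389, adjusted 0.667), where the smallest p this design allows is 0.0556. For H4K12ac the difference was 2.64, with both NaPr libraries above both untreated ones. For H3K18ac it was -0.416 and the libraries overlapped; it was 0.821 without NaPr replicate 1 and 0.523 without untreated replicate 2. Without H3K18ac NaPr replicate 1 the mean difference was 1.73 (exact permutation p = 0.167, adjusted 0.667). In NaBu the mean was 2.61%, 0.614 above untreated (exact permutation p = 0.556, adjusted 0.667). For H4K12ac both NaBu libraries again lay above both untreated ones, by 1.63 in the mean, which was 0.243 without NaBu replicate 1. For H3K18ac the difference was -0.401, and 0.538 without untreated replicate 2. The mean difference became -0.0791 without replicate 1 of H4K12ac in NaBu. H4K12 and H3K18 libraries averaged 2.27% and 2.60% (exact permutation p = 0.522, adjusted 0.667). These p-values measure the spread between samples that nothing states to be separate cultures, and they do not show that the shares are equal.

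Outside genes the density of regions fell with distance from the nearest start site in all 20 libraries. Density was expressed relative to the mean of the whole genome in the same library, and the median over 20 libraries was 1.17 inside genes (range 1.10 to 1.37) and 1.81 within 10 kb of a start site outside genes (1.07 to 2.52). It was 0.744 at 10 to 100 kb (0.461 to 0.936). Inside deserts it was 0.246 at 100 to 200 kb (0.121 to 0.410), 0.106 at 200 to 500 kb (0.0567 to 0.304) and 0.0235 beyond 500 kb (0 to 0.0760). The ranges of the first and the last of these desert zones did not overlap. H4K12bu replicate 1, with 141 desert regions in all, had no region beyond 500 kb, a zone that holds 2.82% of the genome. The NaPr and NaBu input lists behaved otherwise, with 1.07 and 0.991 at 100 to 200 kb and 1.02 and 0.945 at 200 to 500 kb, and fell to 0.360 and 0.346 beyond 500 kb. The untreated input had 0.558, 0.480 and 0.123 in these zones, and 1.78 within 10 kb of a start site outside genes. Within 500 kb of an assembly gap of 10 kb or more, where the deserts around centromeres lie, sat 12.1% of desert sequence and 3.43% to 8.77% of desert regions. The inputs fell short of the sequence share too, with 5.26% (NaPr), 7.03% (NaBu) and 6.89% (untreated) of their desert regions there.

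**Figure D2:**
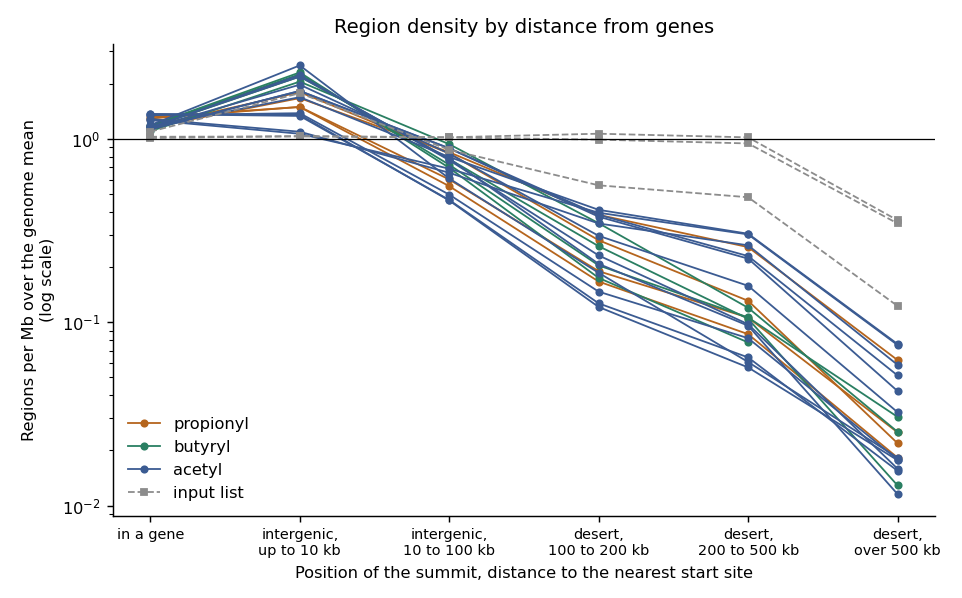
Region density by distance of the summit from genes, as regions per Mb over the genome mean of the same library on a log scale; each line is a library, coloured by the kind of mark, and grey dashed lines are inputs. The 20 libraries drop from 1.07 to 2.52 within 10 kb to at most 0.0760 beyond 500 kb; H4K12bu replicate 1 is at 0 there and is not drawn.

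Desert regions were narrower, lower in GC and slightly weaker than the other regions of the same lists. The median width was 290 bp against 340 bp, lower in 10 of 10 groups (difference -50.3 bp, two-sided exact sign-flip permutation over groups, adjusted p = 0.00537 over 11 properties). The widest desert regions of a list reached from 1236 to 10767 bp. The 200 bp around the summit had a GC share of 45.3% against 49.6%, lower in 10 of 10 groups (difference -4.24 percentage points, permutation adjusted p = 0.00537), and above the 37.7% of desert sequence as a whole. The median fold, the ratio of fragment pileup to local background that the caller gave each region, was 3.07 against 3.20, lower in 8 of 10 groups (difference -0.133, permutation adjusted p = 0.0251). The 2 exceptions were H4K12ac in NaPr (2.54 against 2.53) and in NaBu (3.504 against 3.492). Among equal numbers of the strongest regions width and fold no longer passed, with differences of -33.8 bp and -0.274.

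Single desert regions could nevertheless be strong. The H3K18pr libraries had desert regions with folds of up to 57.5 and 41.3, the H4K12pr libraries up to 24.5 and 22.0 and untreated H3K18ac up to 44.3 and 25.9, while the maximum in H4K12ac of NaPr cells was 7.60 and 5.93. Ranked by the caller's p-value, the first desert region of a list came between rank 18, in H3K18ac of NaBu cells, and rank 677, in untreated H4K12ac. In the 12 NaPr and untreated libraries, where fold and p gave back fragment numbers within 0.1 of a whole number, the median desert region rested on 7 to 22 fragments and the median other region on 8 to 25. The share of desert regions that also passed q under 0.05 ranged from 13.7% in H4K12bu replicate 2 to 95.3% in H4K12pr replicate 1, where other regions had 17.9% and 96.7%.

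Motif content was measured as the log2 ratio of the share of summit windows with a match to the share in windows 5 kb to either side. AP-1 was higher at desert summits than at other summits, with a log2 ratio of 0.29 against 0.05, in 9 of 10 groups (difference 0.24, exact permutation adjusted p = 0.0215). The share of desert summit windows with AP-1 ran from 3.11% in H4K12ac of NaBu cells, the exception, to 6.22% in H4K12bu, which had 18 windows with a match among 294. H3K18pr had 3.65%, H4K12pr 3.63% and untreated H3K18ac 4.23%. The AP-1 difference was 0.01 among regions that passed q under 0.05 and -0.14 among equal numbers of the strongest, so it did not hold for the strong regions. It also missed the threshold, though not its direction, without replicate 1 of H4K12bu (0.17, permutation adjusted p = 0.105) and without replicate 1 of H4K12ac in NaBu (0.21, permutation adjusted p = 0.0951).

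The other motifs did not pass the test at the 100 kb limit. KLF/SP, a GC-rich promoter motif, had a log2 ratio of 0.02 at desert summits and 0.43 at other summits (exact permutation adjusted p = 0.0552). CTCF, which binds insulators and loop anchors, had 0.88 and 0.58 (permutation adjusted p = 0.414), on few matches. H4K12bu had no CTCF match at desert summits or in the windows beside them, and the pseudocount alone gave it 0.995. H3K18bu and H4K12ac of NaPr cells had no match at desert summits either. TCF/LEF had -0.18 and -0.13 (permutation adjusted p = 0.588), FOX -0.04 and -0.11 (0.568) and GATA -0.02 and -0.12 (0.588). Beyond 200 kb the KLF/SP and CTCF differences passed, and so did that of FOX with its sign turned (-0.38, permutation adjusted p = 0.0382). The CTCF difference rests in part on the pseudocount, so nothing is concluded from its passing.

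Replicates shared fewer of their desert regions than of their other regions. For the desert regions of replicates 1 and 2, the share that the other replicate's list overlapped was 26.2% and 17.8% in H3K18pr and 13.8% and 22.3% in H4K12pr. The butyryl marks had 56.7% and 41.4% (H3K18bu) and 39.0% and 36.6% (H4K12bu). H3K18ac had 19.6% and 11.8% in NaPr, 18.8% and 49.9% in NaBu and 43.2% and 11.9% in untreated cells. H4K12ac had 7.415% and 7.403% in NaPr, 19.7% and 18.4% in untreated cells, and 3.49% and 78.9% in NaBu, where the lists held 88658 and 11680 regions. In each group the replicate with fewer desert regions had the higher share. Averaged over groups the overlap was 27.2% for desert regions and 43.5% for other regions, lower in 10 of 10 groups (difference -16.3 percentage points, exact permutation adjusted p = 0.00537). Among equal numbers of the strongest regions the difference was -5.51 (permutation adjusted p = 0.14), and without H3K18ac NaPr replicate 1 it was -16.0. The desert regions of that replicate were overlapped by its partner in 19.6% of cases and by untreated H3K18ac replicate 2, the list with the most desert regions (5695), in 25.0%.

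The same regions moved by 10 and 20 kb to either side gave the overlap at nearby positions without regard to the mark. For desert regions it was 0.20% to 4.19% by group, and the measured overlap exceeded it by 4.32-fold in H4K12ac of NaPr cells, 4.62-fold in H4K12pr, 5.84-fold in H3K18pr and 58.6-fold in H3K18bu. In H4K12bu, with 141 and 153 desert regions, the shifted share was 0 to 0.840% in single shifts, too few regions for a ratio. Other regions exceeded their own shifted overlap by 1.92-fold to 25.0-fold. The ratio was higher for desert regions in 10 of 10 groups (exact permutation p = 0.00195, the smallest this test can give), and so in each of the 9 without H4K12bu, whereas the overlap minus the shifted overlap was lower, 25.0% against 32.4% (permutation adjusted p = 0.00537). Desert regions thus recurred less often than other regions, and their overlap was a larger multiple of the shifted one. This pair of measures was added after the data had been seen.

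**Figure D3:**
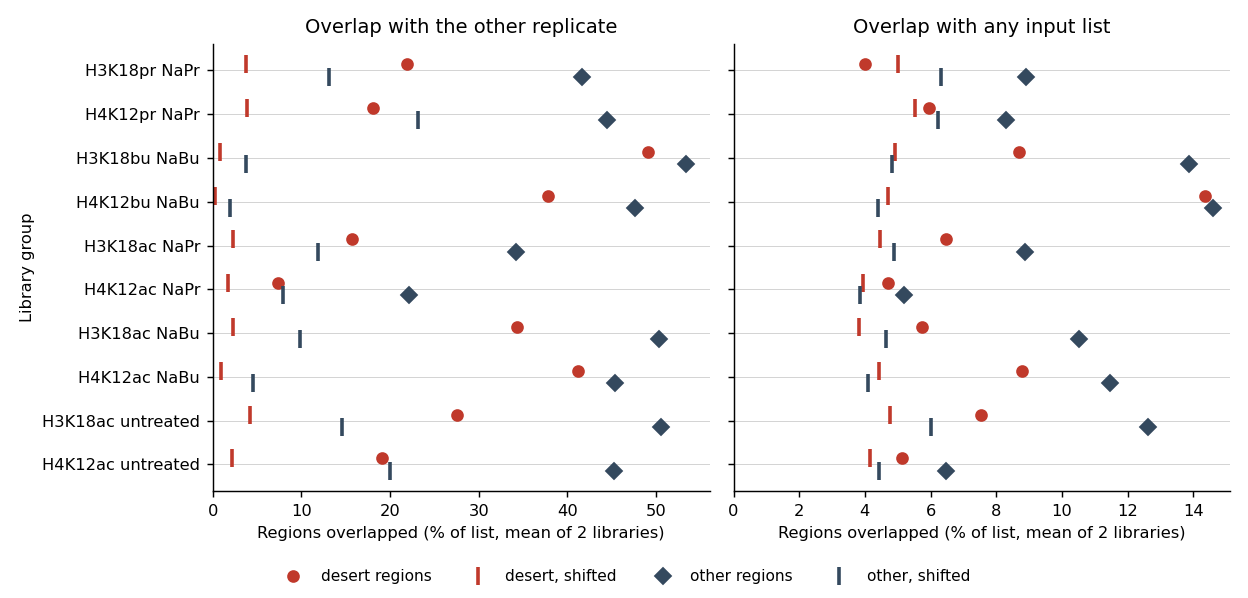
Share of desert (circles) and other (diamonds) regions that overlap the other replicate's list (left) or any input list (right), as % of regions, mean of 2 libraries per group; vertical ticks show the same regions moved by 10 and 20 kb. Replicate overlap of desert regions lies below that of other regions and above its shifted value in all 10 groups; on the right, desert regions of H3K18pr lie at 4.00%, left of their shifted value of 5.00%.

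Few desert regions lay over an input peak. The share that overlapped any of the 3 input lists averaged 7.13%, against 10.1% of other regions, lower in 10 of 10 groups (difference -2.94 percentage points, exact permutation adjusted p = 0.00537). All groups were set against the same 3 input lists, so their differences are not independent. Taken singly, the untreated input overlapped a smaller share of desert than of other regions in every library. In H3K18pr replicate 1 these shares were 1.83% and 6.31%. The NaPr and NaBu inputs went either way, the NaPr one with 2.05% and 2.58% there and 4.27% and 3.46% in H4K12pr replicate 2. The untreated input list was itself dense near start sites, and its part in the difference was not tested. H3K18pr had 4.00% ± 0.812 (SD, n = 2), H4K12pr 5.94% ± 1.23, H3K18bu 8.69% ± 0.188 and H4K12bu 14.3% ± 1.79, which is 42 of 294 regions. Acetyl groups ran from 4.71% in H4K12ac of NaPr cells to 8.77% ± 6.99 in H4K12ac of NaBu cells, whose replicates stood at 3.83% and 13.7%. Shifted desert regions overlapped an input peak in 3.81% to 5.52% of cases. The measured share was from 0.800-fold of the shifted one in H3K18pr to 3.06-fold in H4K12bu. Other regions had 1.33-fold to 3.33-fold, higher in 10 of 10 groups (exact permutation p = 0.00195). The input list of the same condition overlapped only 0.900% to 4.33% of desert regions, and against it the difference from other regions was -0.760 (permutation adjusted p = 0.325). With at least 0.5 of the region overlapped it was -0.148 (permutation adjusted p = 0.588).

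Most desert regions were seen once. Merged across the 20 libraries wherever they touched, they formed 34534 regions, of which 29926 (86.7%) came from 1 library. All regions merged in this way formed 777269, and 66.6% of them came from 1 library. Both replicates of at least 1 group held 1604 desert regions (4.64%, against 15.5% of all regions), both replicates of 5 or more groups held 189 (0.547% against 2.699%), and 21 were in all 20 libraries (0.0608% against 0.2396%). Recurrent regions were wider and more often lay over an input peak. Merged regions that no group held in both replicates had a median width of 259 bp and 3.63% lay over an input peak. Those held by both replicates of all 10 groups had a median width of 3350 bp, and 52.4% lay over an input peak. A merged region grows with each library it joins, and a wide region meets an input peak more easily. What the inputs contribute to these 21 regions was not tested.

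Among regions held by all 20 libraries, the 10 with the highest mean fold were named, and 9 of them are given here. Folds of different lists depend on the depth of each library and its input, so they describe and do not test a difference. The MED14/USP9X region, between a Mediator subunit and a deubiquitinase gene at chrX:40906936-40911848, and the CYP26A1/MYOF region at chr10:93287381-93289162, beside a gene for a retinoic acid-degrading enzyme, were the 2 of the leading 10 without an input peak. At MED14/USP9X the H3K18pr libraries had 31.5 and 23.5, H4K12pr 10.2 and 10.4, H3K18bu 9.06 and 15.4 and H4K12bu 5.80 and 3.78. In acetyl libraries it ranged from 4.70, in H4K12ac of NaBu cells, to 13.7, in H3K18ac of NaPr cells. At CYP26A1/MYOF they had 55.8 and 21.6 (H3K18pr) and 12.8 and 9.42 (H4K12pr), with 2.49 to 17.4 in acetyl and 3.34 to 7.78 in butyryl libraries.

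The remaining 7 regions lay beside KCNJ3 and NR4A2 (mean fold 12.6), GADL1 and STT3B (11.1), KLF4 and ACTL7B (11.02), TBC1D1 and KLF3 (8.76), LCLAT1 and CAPN13 (8.65), KCNG1 and NFATC2 (8.56) and BAMBI and LYZL1 (8.25). KLF4 encodes a factor of differentiated colon epithelium, NR4A2 an orphan nuclear receptor and NFATC2 a calcium-regulated factor. In each of the 10 the highest fold was that of H3K18pr replicate 1, from 24.0 at TBC1D1/KLF3 to 57.0 at KCNJ3/NR4A2. Mean fold was the measure that ranked these regions, so their height is a description.

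**Figure D4:**
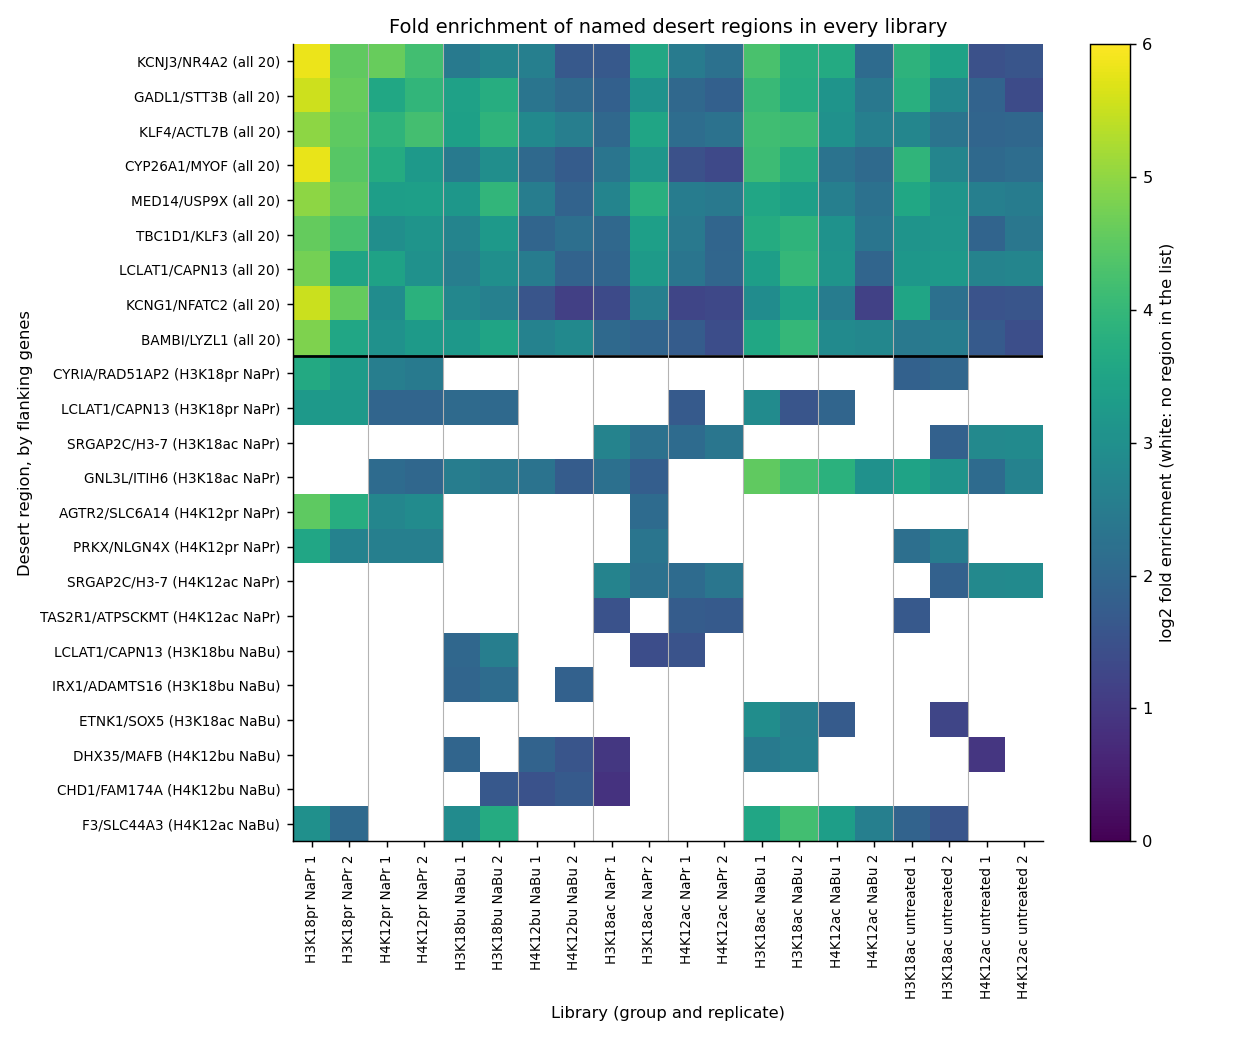
Highest fold of named desert regions in every library (log2 colour scale; white where the list has no region). The upper 9 rows are regions held by all 20 libraries, and lower rows are regions held by both replicates of the mark in brackets and by neither of the compared mark, up to 2 for each side; the upper rows are lightest in the H3K18pr columns, where KCNJ3/NR4A2 has folds of 57.0 and 23.1.

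Acyl and acetyl marks of the same site and treatment were next compared region by region. A merged desert region was one-sided where both libraries of one mark held it and neither of the other. In NaPr, 165 of 9520 desert regions (1.73%) were one-sided for H3K18pr and 103 (1.08%) for H3K18ac. Over all regions the shares were 1.87% and 2.86%. H3K18pr thus had 61.6% of the one-sided desert regions (95% Wilson interval 55.6 to 67.2, counting error only) and 39.6% of all one-sided regions. Its desert count was near the background share and that of H3K18ac below it. With H3K18ac NaPr replicate 1 left out, so that the remaining H3K18ac library alone decided for its side, the H3K18pr share was 7.32%. The share over all regions without that library is not given here.

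For H4K12 in NaPr the split was the other way. Of 13930 desert regions, 185 (1.33%) were one-sided for H4K12pr and 214 (1.54%) for H4K12ac, against 7.05% and 2.39% over all regions. H4K12pr had 46.4% of the one-sided desert regions (41.5 to 51.3) and 74.7% of all of them. Both desert shares were under the background. Among regions with q under 0.05 the H4K12pr share was 67.6%, and among equal numbers of the strongest 61.5%. Shares over all regions at these settings are not given here.

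In NaBu the acetyl side held most, and the butyryl lists were the shorter. H3K18bu alone held 14 of 3958 desert regions (0.354%) and H3K18ac alone 211 (5.33%), against 0.195% and 13.2% over all regions. The H3K18bu share was 6.22% (3.74 to 10.2). H4K12bu alone held 3 of 3906 (0.0768%) and H4K12ac alone 49 (1.25%), against 0.143% and 2.91%, a share of 5.77% (1.98 to 15.6). Among the 8158 strongest regions of each list H3K18bu had 89.2% and H4K12bu 33.3%. The share over all one-sided regions at this setting is not given here, so these values are not read as particular to deserts. All 4 libraries of a comparison held 200, 109, 181 and 44 desert regions in this order of comparisons (2.101%, 0.782%, 4.57% and 1.13%, against 6.05%, 3.395%, 6.34% and 3.53% of all regions), and 89.99%, 93.3%, 83.2% and 95.2% were in 1 library only, more than the 78.9%, 76.5%, 72.5% and 87.4% of all regions.

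The strongest one-sided H3K18pr region over no input peak lay at chr2:17299601-17301907 in the CYRIA/RAD51AP2 desert, 218 kb from the start of RAD51AP2. H3K18pr had folds of 12.6 and 9.77, H4K12pr of 5.88 and 5.44 and untreated H3K18ac of 3.64 and 3.95, and no other library had a region there. The region was thus not confined to the propionyl marks. At chr7:41580374-41581365 in the desert between SUGCT and INHBA, which encodes an activin subunit, H3K18pr had 9.79 and 8.28, H4K12pr 2.77 and 3.56, and 3.18 came from replicate 1 of H4K12ac in NaBu. Beside AGTR2, an angiotensin receptor gene, a region at chrX:116280575-116281274 reached 22.8 and 13.3 (H3K18pr), 6.71 and 7.48 (H4K12pr) and 4.28 (H3K18ac NaPr replicate 2). It was one-sided for H4K12pr.

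A region at chr6:141153046-141153495 in the CITED2/NMBR desert was in the H3K18bu libraries alone, with folds of 4.02 and 3.75. A region at chr12:23472570-23473443 in the desert between ETNK1 and SOX5, the gene of a SOX-family factor, was one-sided for H3K18ac in NaBu, with 7.63 and 5.93, and had 3.28 in replicate 1 of H4K12ac in NaBu and 2.399 in replicate 2 of untreated H3K18ac. In the desert between MSX2, a homeobox gene, and DRD1, a dopamine receptor gene, a region was in the NaPr H4K12ac libraries alone, with 3.19 and 3.25. Such regions met the one-sided rule by these values, which chose them, and their folds are given without a test.

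Deserts differed widely in how many regions they held. Of the 1845 deserts, 216 had no region in any library, and 197 deserts with 26.3% of desert sequence held as many desert regions as all the others. The 10 deserts with the highest density, among 928 with at least 100 kb of sequence, held 2502 regions (5.13%) in 0.425% of desert sequence. Density is given relative to the mean of all deserts in the same library. These 10 were chosen by this measure, so their values are a description.

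The densest desert lay between RGS9, a regulator of G protein signalling, and AXIN2, a negative regulator and target gene of Wnt/β-catenin signalling, at chr17:65227704-65357540. It abuts the 3′ side of RGS9 and lies 171 kb from AXIN2. It held 409 regions over the 20 libraries, and its mean relative density was 45.0. Among the acyl groups H3K18pr had 28.7, H4K12pr 27.9, H3K18bu 104 and H4K12bu 66.7. The H4K12bu value came from 5 and 1 regions in its replicates. H3K18ac had 33.5 in NaPr, 52.9 in NaBu and 27.4 in untreated cells, and H4K12ac had 10.5, 64.5 and 34.4. The inputs averaged 1.91. Without the 4 NaBu groups, whose lists were short or unequal, the mean was 27.1 and still ranked 1. Its lead region, chosen after the values were seen, at chr17:65283197-65296076, was in 19 libraries and over no input peak, and H3K18pr had folds of 41.9 and 20.04 there, H4K12pr 15.03 and 18.7, H3K18bu 4.22 and 6.30 and untreated H3K18ac 12.3 and 5.02.

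The EFNB1/PJA1 desert at chrX:68929022-69065520, beside the gene for ephrin-B1, held 276 regions at a mean relative density of 20.7, from 9.99 in H4K12ac of NaPr cells to 34.5 in untreated H4K12ac, with 3.34 in the inputs. The BAMBI/LYZL1 desert at chr10:28941911-29189060, next to the gene for a decoy receptor of the TGF-β family, had 271 regions and a mean of 20.9. The 4 NaBu groups averaged 39.97 there and the other 6 groups 8.14, which ranked 16. With the 8158 strongest regions of each list these means were 75.7 and 33.8, a smaller contrast, on 66 regions over all libraries. The KLF5/KLF12 desert at chr13:73154977-73413472 was also denser in the NaBu groups. KLF5 encodes a zinc finger factor of proliferating intestinal crypt cells, and the desert had a mean of 34.7 in the NaBu groups and 4.93 (rank 42) in the others, with 2.31 in the inputs. With the 8158 strongest regions of each list it was 40.1 and 1.27, on 32 regions over all libraries. NaBu libraries came from a run of their own, so the treatment and the run cannot be told apart.

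Of the 10 named deserts 3 lay on chromosome 20. TFAP2C/BMP7 at chr20:56830398-57005740, beside a bone morphogenetic protein gene, had 275 regions and a mean of 16.7. FOXA2/SSTR4 at chr20:22785345-22930784, beside a pioneer factor gene of endoderm, had 173 and also 16.7. KCNG1/NFATC2 at chr20:51123108-51386956 had 410 and 14.0, with 16.5 (rank 3) without NaBu groups. Inputs stood at 2.13, 3.22 and 2.86 in these. The remaining 3 were SH3BP4/AGAP1 (14.4, with 0.937 in H4K12ac of NaBu cells), ASMT/DHRSX in the pseudoautosomal region of chromosome X (13.8) and ICE1/MED10 (13.8, with 24.0 in NaBu and 6.94 in the other groups). Among equal numbers of strongest regions ICE1/MED10 and TFAP2C/BMP7 had no region in any of the 6 groups without NaBu, and 31.4 and 22.9 in the NaBu groups. These values rest on only 8 and 10 regions over all libraries.

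**Figure D5:**
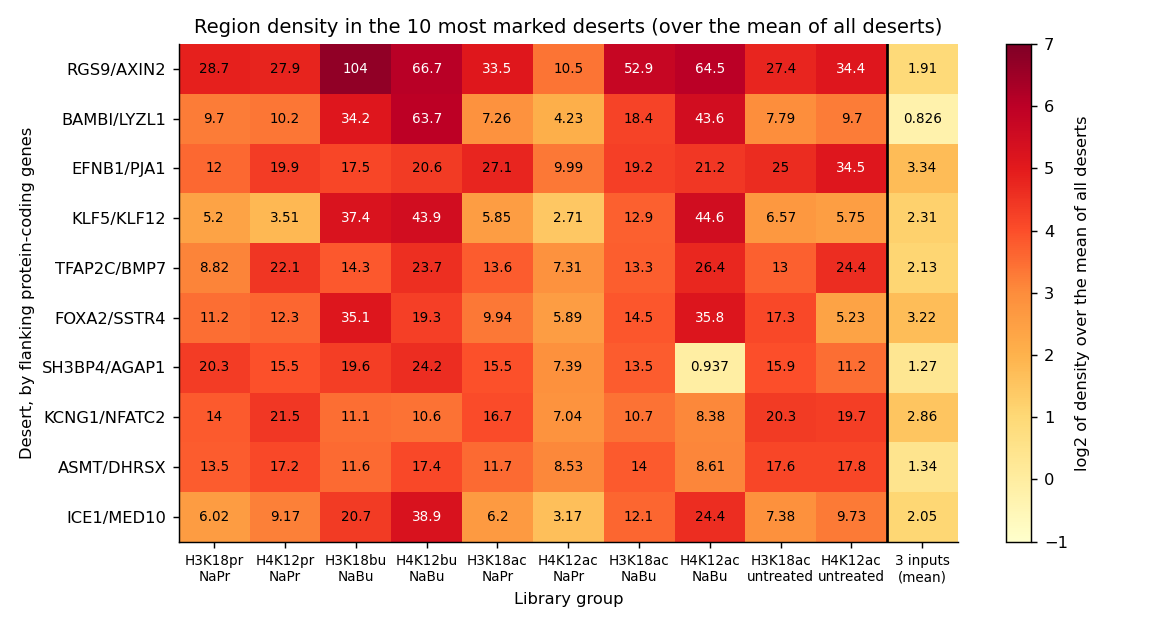
Relative density of regions in the 10 most marked deserts (rows) by group (columns), as density over the mean of all deserts in the same library; the colour scale is log2 and the number in each cell is linear, with the mean of the 3 inputs at the right. RGS9/AXIN2 runs from 10.5 to 104 and its inputs at 1.91; in the KLF5/KLF12 row H3K18bu, H4K12bu and NaBu H4K12ac stand at 37.4 to 44.6.

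The longest deserts were nearly empty. The stretch between CDY1 and VAMP7 on chromosome Y had a mean relative density of 0.024, that across the centromere of chromosome 1 between SRGAP2C and H3-7 had 0.327, and that before GOLGA6L6 on chromosome 15 had 0.150. In the inputs these had 0.156, 0.347 and 0.125. Most of their span is assembly gap.

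A list of 12 genes known for distant regulatory sequence or for colon cancer flanked 21 deserts, 15 of them with at least 100 kb of sequence. Of these 15, 8 had a mean relative density above 1, and the median was 1.21, against 32.1% above 1 and a median of 0.597 for all deserts of that size. Between KCNJ2 and SOX9, the gene of a crypt and progenitor factor, 3 deserts had 0.974, 3.00 and 5.62, the densest being the one nearest SOX9. Inputs stood at 4.03, 2.67 and 3.09 in these. Deserts beside BMP2 had 1.75, 2.099, 2.31 and 2.14, with 2.43, 1.39, 1.29 and 1.73 in the inputs. DACH1 deserts had 0.747, 1.27 and 1.21, with 1.91, 1.18 and 1.15 in the inputs. SATB1/KCNH8 had 0.412 and ID4 deserts 0.310 and 0.9497, with 0.275, 0.533 and 0.637 in the inputs. The inputs were thus above 1 in each SOX9, BMP2 and DACH1 desert. Whether the listed deserts exceed all deserts more in the marks than in the inputs was not tested. A 36.0 kb desert between MYC and GSDMC had 15 regions over all libraries and a mean of 4.402, with 4.83 in the inputs, and its highest group was H3K18bu at 21.1 on 1 region in each replicate. OTX2 and SOX4 flanked no desert.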

How the data were processed

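Histone marks were measured by ChIP-seq in SW480 cells, as 20 immunoprecipitated libraries (10 groups of 2) and 3 inputs, grouped by the sample labels. According to the submitters' processing notes reads were handled with bcl2fastq 2.17.1, cutadapt 1.8.1, Bowtie2 2.3.1 and MACS2 2.1.0 on hg38. Peaks were called per library against input in an ENCODE-type pipeline with a p-value threshold of 0.01, blacklisted peaks were removed, and replicates were not pooled. What the input lists were called against is not given in the sources used here. In the deposited lists the authors give each peak a fold (ratio of pileup to local background), a −log10 p and a −log10 q, which depend on library depth and were used only within a list.

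Computed here were deserts and distances from GENCODE 44 on hg38, with the 5′ end of each gene as its start site. All unsequenced bases (N) were left out of sequence lengths. The distance to an assembly gap used gaps of 10 kb or more. Regions overlapped when they shared 1 bp. Shifted regions were moved by 10 and 20 kb both ways and kept if they stayed inside (or outside) deserts. The caller's p and fold gave the pileup of regions up to a −log10 p of 15. Motif ratios used a pseudocount of 0.5 matches, which gives a group without any match a positive ratio. A share with a Wilson interval covers counting error only. Percentages of libraries were compared by exact permutation within site and treatment (Benjamini-Hochberg over 6 tests), and desert with other regions by exact sign flips over the 10 group means, with a smallest p of 0.00195 (over 11 properties). Alternatives were a 200 kb limit, start sites of all transcripts, q under 0.05, the 8158 strongest regions of each list, regions over no input peak, at least 0.5 of a region overlapped, the input of the same condition, replicate numbers as a block and leaving out each library. Added after seeing the data were subtraction of shifted overlap and density without the NaBu groups.

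Named were the 10 deserts of at least 100 kb of sequence with the highest mean relative density, the 3 longest, those beside 12 listed genes, the 10 regions held by most groups (ties by mean fold), up to 3 one-sided regions of each side over no input peak with the highest fold in the weaker replicate, and, chosen after values were seen, the lead region of each of the 10 deserts. Members and lists were chosen with earlier results of these data known. The repeat-masked share was not computed, so 11 properties were tested. Scripts were tested on simulated data. Tools were Python 3.11.15, numpy 2.4.6, pandas 2.3.3, scipy 1.17.1 and matplotlib 3.10.9. Run tags come from the names of the deposited lists. Named regions of 2 deserts and the values of 1 listed gene are not reported here, though counts over all regions or the whole list include them. Reads were not analysed here.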

Additional observations from a re-analysis of the deposited data

Results flagged for a closer look

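The difference in desert share between the histone sites (H4K12 minus H3K18, means of 2 libraries) had a different sign in different groups, with libraries that did not overlap in either. It was -1.50 percentage points for propionyl and 1.57 for acetyl marks in NaPr cells. The acetyl NaPr libraries were barely apart, with H4K12ac at 3.62% and 4.17% against H3K18ac at 1.08% and 3.55%. Without H3K18ac NaPr replicate 1 the acetyl difference was 0.338. The propionyl difference minus the acetyl one was -3.07. The butyryl difference was -0.812, which is -2.39 from the acetyl NaPr one. In untreated cells the acetyl difference was -1.48, and the NaPr value lay 3.05 above it. Without that library the 3 differences of differences were -1.84, -1.15 and 1.81. None of the 3 was tested. All 3 involve the NaPr acetyl libraries, and the propionyl and butyryl libraries come from other runs than these.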

How the results depend on the processing

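Lists called per library at an unequal depth limit what can be compared, and the median region, desert or other, rested on few fragments. The GC difference kept its direction and its call under all 24 alternatives, and replicate overlap, width and fold under all except equal numbers of the strongest regions. No desert share comparison passed the threshold under any alternative. Acyl against acetyl within NaPr or NaBu, and treated against untreated, could not pass, since the smallest p of these designs was 0.0556. Their failure to pass therefore says nothing on how robust they are.

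With a 200 kb limit the H4K12 minus H3K18 share was 0.00112, the FOX, GATA, KLF/SP and CTCF log2 differences (desert minus other) were -0.38, -0.21, -0.49 and 0.71, the FOX, KLF/SP and CTCF ones then past the threshold, and the H4K12pr and H4K12bu shares of one-sided desert regions were 34.6% and 0%. The CTCF difference rests in part on the pseudocount. Among regions with q under 0.05 the input overlap difference was -1.76 and no longer passed, AP-1 was 0.0112, TCF/LEF 0.0718, FOX -0.0376 and GATA -0.00686 (log2 differences), and the one-sided shares were 67.6% for H4K12pr, 1.53% for H3K18bu and 0% for H4K12bu. With equal numbers of the strongest regions, acyl minus acetyl shares were 0.401 (NaPr 0.0215, NaBu 0.781) and H4K12 minus H3K18 0.00123. Differences in replicate overlap (-5.51), input overlap (-3.04), width (-33.8 bp) and fold (-0.274) no longer passed, AP-1 (-0.14), TCF/LEF (0.17), FOX (-0.0238) and CTCF (-0.36) changed sign, and one-sided shares were 92%, 61.5%, 89.2% and 33.3% for H3K18pr, H4K12pr, H3K18bu and H4K12bu. The input overlap difference did not pass with at least 0.5 of the region overlapped (-0.148) or with the input of the same condition (-0.760). Equal numbers and q use fewer regions. The cause of these changes was not tested under any of the alternatives.

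Leaving out 1 library at a time moved acyl minus acetyl between -0.970 and -0.277, in NaPr between -1.33 and -0.0947 and in NaBu between -1.23 and 0.160, NaPr minus untreated between 0.491 and 1.73, NaBu minus untreated between -0.0791 and 1.31 and H4K12 minus H3K18 between -0.610 and -0.0549. AP-1 stayed between 0.17 and 0.31, TCF/LEF between -0.14 and 0.0394, FOX between -0.0283 and 0.17 and KLF/SP between -0.54 and -0.28 (permutation adjusted p from 0.0322 to 0.244), which passed without any of 6 libraries taken singly. One-sided shares, where the group left with 1 library needs only that one, ran from 7.32% to 95.3% for H3K18pr, 4.34% to 91.5% for H4K12pr, 1.08% to 46.9% for H3K18bu and 0.109% to 47.5% for H4K12bu. For none of the alternatives is the share over all one-sided regions given, so whether these moves are particular to deserts was not tested.

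Replicate numbers are shared between groups, but nothing says that they pair the libraries. With the replicate number as a block (replicate block) the exact permutation p was 0.305 for acyl minus acetyl (-0.623), 0.5 in NaPr (-0.713), 0.75 in NaBu (-0.533), 0.5 for NaPr minus untreated (1.11), 0.625 for NaBu minus untreated (0.614) and 0.506 for H4K12 minus H3K18 (-0.332). No call changed. A block leaves fewer arrangements, so the comparisons within NaPr or NaBu and of treated with untreated cells could not have passed.

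For deserts, with equal numbers of the strongest regions the relative density was 1.30 at SRGAP2C/H3-7, 0.757 and 0.480 at the second KLHL1/DACH1 and the DACH1/MZT1 desert and 0 at FERMT1/BMP2, each then on the other side of 1, and 1.00 at ID4/MBOAT1 among regions over no input peak. Without the NaBu groups, an alternative added after seeing the data, ID4/MBOAT1 had 1.30 and the KCNJ2/SOX9 desert farthest from SOX9 1.38, also past 1.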

Other observations

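By chromosome, the desert sequence of chromosome 20 was the most densely marked, with 2551 regions in 7.89 Mb and a density of 3.10 relative to all desert sequence, as the mean of the 20 libraries, and of 2.73 with all regions pooled. Chromosomes 17 (1.78) and 2 (1.67) followed by the mean, and 2 (1.82) and 7 (1.67) by the pooled value, where 17 had 1.33. By the mean over the 3 inputs the values were 1.78 on chromosome 20, 0.992 on 17 and 1.84 on 2. By the mean of the 20 libraries the lowest were chromosome Y (6 regions, 0.00264), 19 (0.113), 22 (0.294), 18 (0.354) and 14 and 21 (both 0.457). Deserts of chromosome 7 had 1.45 with 2.09 in the inputs, and those of chromosome 10 had 1.30 with 0.542. Copies of each chromosome in these cells were not measured here, and their part in these densities was not tested.

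Overlap between the NaBu lists differed with the number of desert regions. The best-matching other NaBu list overlapped 73.5% and 55.5% of the desert regions of the H3K18bu replicates, 84.4% and 64.7% of those of H4K12bu and 89.7% of the 175 of H4K12ac replicate 2. It overlapped 18.75% of the 3152 desert regions of H3K18ac replicate 1 and 11.1% of the 3787 of H4K12ac replicate 1. H4K12ac replicates in NaPr cells, with 5219 and 5430 desert regions, met no other library's list for more than 8.70% and 7.403% of them.

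In the list of the untreated input 4.24% of desert summit windows held the AP-1 motif, against 2.68% of windows 5 kb away. At the other summits of that list the shares were 5.93% and 2.96%, so the excess was not particular to deserts. For desert summits the shares were 2.96% and 2.95% in the NaPr input and 2.40% and 3.06% in the NaBu input. For other summits they were 3.44% and 3.09% in NaPr and 3.07% and 3.16% in NaBu.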
